A study of Mus musculus with 36 samples.

Results

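The genes described here are 9 genes of the cytosolic heat shock response (Dnajb1, Hspa1a, Hspa1b, Hspa8, Hsph1, Hsp90aa1, Bag3, Hspa4 and Hsf1) and Ier5, measured by RNA sequencing of mouse brain. They are 10 of the 54532 gene identifiers in the deposited table and 10 of the 18438 genes that passed the filter on low counts. They were taken by symbol and chosen by their measured levels, which had been seen to be lower in gavaged than in ungavaged brains with the same disease. The values of that comparison and of its vehicle and farnesol arms are therefore a description. The counts of genes called there are printed only beside the share called over all genes, and no test of the members is read from them. Comparisons with naive brains, and of farnesol with vehicle, were not used in the choice and are tested. The comparisons with naive brains share libraries with that choice. The choice favours falls in gavaged and rises in untreated brains, so their p-values are not independent of it.

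All libraries came from whole brains of WT C57BL/6 mice, collected at day 19, the peak of experimental autoimmune encephalomyelitis (EAE). EAE is a model of multiple sclerosis in which an immune response to a myelin peptide is raised. Here the mice were injected under the skin with the peptide MOG35-55, complete Freund's adjuvant and pertussis toxin, and the toxin was repeated. Naive mice (n = 8) were healthy, and untreated EAE mice (n = 9) were not gavaged. Vehicle EAE mice (n = 9) received corn oil by daily gavage, and farnesol EAE mice (n = 10) received trans, trans-farnesol, an isoprenoid alcohol, at 100 mg per kg per day in the same oil and by the same route. The 19 vehicle and farnesol libraries are called gavaged. No group was gavaged without oil, and none received adjuvant and toxin alone, so the procedure and the oil, and the disease and its induction, cannot be told apart. Age and sex were not used here. Replicate numbers tie no library to a named animal, so p-values measure the spread between these libraries.

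Heat shock proteins are chaperones that bind unfolded or newly made proteins and help them reach or regain their shape. Hsp70 proteins do this in cycles of ATP use that Hsp40 proteins such as Dnajb1 start, and that Hsp110 proteins and Bag3 end by releasing the nucleotide. When unfolded proteins accumulate, the transcription factor Hsf1 is freed from chaperones, forms trimers and binds heat shock elements, inverted repeats of the unit GAA or its complement TTC, in front of chaperone genes. Ier5 encodes an immediate early protein that binds Hsf1 and, through a phosphatase, raises its activity. In brain, Hspa8 and the Hsp90 genes are made at high levels without stress, while Hspa1a and Hspa1b are the stress-inducible Hsp70 genes.

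RefSeq (GRCm38.p6) gave promoter sequences for 7 of the 10 genes, Dnajb1, Hspa1a, Hspa1b, Hsph1, Bag3, Ier5 and Hspa4. The 250 bases before each start were searched on both strands for a pair of facing units, GAANNTTC or TTCNNGAA. Hspa1a, Hspa1b and Hsph1 held such a pair, and 12.98% of all 27025 mouse promoters of the same length did. The stretches around these pairs are printed because they are the only inverted repeats found among the members, with the pair in capitals and each stretch written 5′ to 3′ on the gene's own strand, which is the minus strand for all of them.
Hspa1a, chr17:34972243-34972280: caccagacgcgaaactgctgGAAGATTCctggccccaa
Hspa1b, chr17:34959325-34959362: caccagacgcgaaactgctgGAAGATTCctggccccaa
Hsph1, chr5:149636352-149636389: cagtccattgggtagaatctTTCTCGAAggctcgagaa
The Hspa1a and Hspa1b stretches are identical, and their 250 upstream bases are the same at 247 positions and differ at 3. In both, the pair begins 104 bases before the start, and in Hsph1 it begins 33 bases before the RefSeq start. By the GENCODE annotation Hsph1 begins further upstream, at chr5:149636376 on the minus strand, so there the pair lies just inside the gene. The longer element of 3 facing units, GAANNTTCNNGAA or TTCNNGAANNTTC, was found in 0 of the 7 genes and in 0.403% of all promoters. The CCAAT box was found in 5 of the 7 (Dnajb1, Hspa1a, Hspa1b, Hsph1 and Ier5) and in 34.5% of all promoters. These matches describe the letters in this window and no binding was measured.

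Library totals ranged from 14706000 to 24211100 counts, and levels are given as CPM (counts scaled to a common library size) after scaling by edgeR's TMM factors. The libraries fell into 2 sets that no label names, seen as a gap in the ribosomal RNA gene CT010467.1 between 2816 and 5157 CPM. Set 1 held the untreated and vehicle libraries and farnesol replicates 1 to 3 (21 libraries), and set 2 held farnesol replicates 4 to 10 and the naive libraries (15 libraries). No naive library shares a set with an untreated or vehicle library. In 8 libraries (untreated replicates 1 to 5 and vehicle replicates 3 to 5) the prostate gene Sbp was above 1 CPM, and in 3 libraries (untreated 3, farnesol 2 and naive 4) cerebellar genes were more than 1 log2 unit below their group's median. Marker genes of neurons, astrocytes and oligodendrocytes were detected in every group.

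Per kilobase of exon, the 10 genes spanned a wide range of levels and kept 1 order in the 4 groups. In naive brain, Hspa8, the constitutive cytosolic Hsp70, was highest at 426 ± 27.4 CPM per kb (SD, n = 8). Hsp90aa1, the inducible cytosolic Hsp90, followed at 307 ± 10.0 CPM per kb. The Hsp110 genes Hspa4 (49.5 ± 1.85) and Hsph1 (43.5 ± 2.20 CPM per kb) came next. Ier5 stood at 23.8 ± 3.92 and Dnajb1 at 17.5 ± 1.43 CPM per kb, and their libraries overlapped in naive, vehicle and farnesol brains. Bag3 (7.69 ± 1.79) and Hsf1 (4.81 ± 0.440 CPM per kb) overlapped in every group. Hspa1b (2.63 ± 0.252) and Hspa1a (2.54 ± 0.296 CPM per kb) were the lowest and also overlapped in every group. How reads that match both of these near copies were counted is not given, so their levels per kb and their place in the order are uncertain. The lowest raw count of any member was 79, for Hspa1b in farnesol replicate 6, and the highest was 49254, for Hspa8 in an untreated library, so counting error was largest for Hspa1a and Hspa1b.

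**Figure D1:**
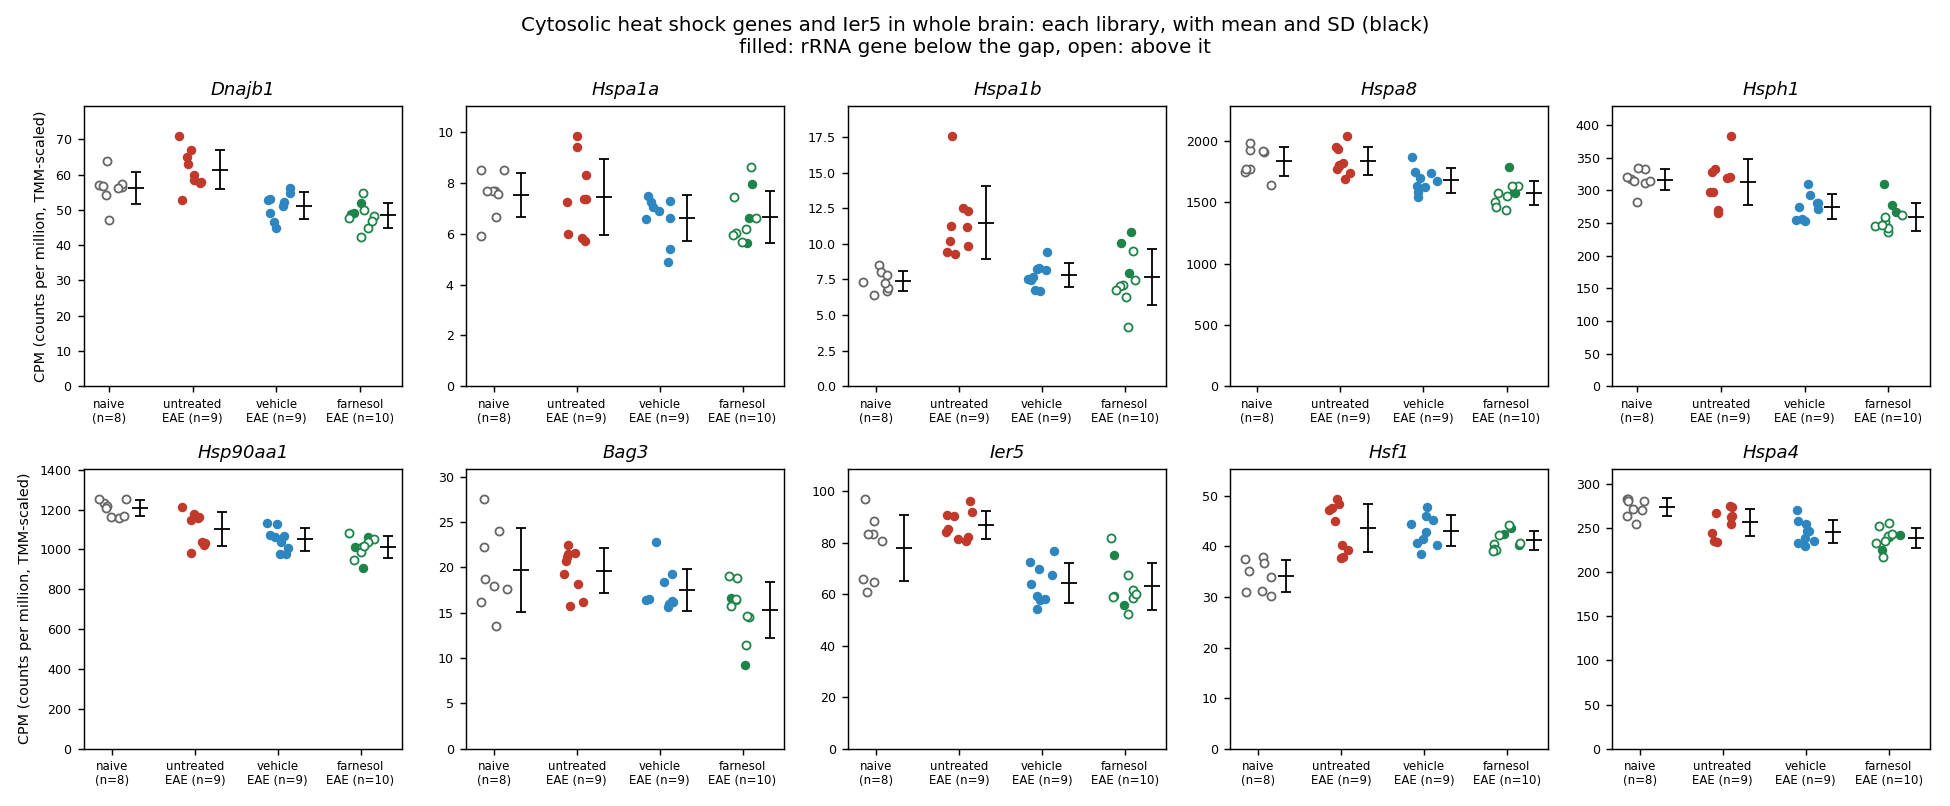
Level of each of the 10 genes in every library, in CPM (linear axis from 0), by group, with the mean and SD as black bars. Filled points are libraries of set 1 and open points libraries of set 2. For Ier5 the 9 untreated libraries (80.6 to 96.0 CPM) sit above all 9 vehicle libraries (54.1 to 76.6 CPM), and for Hsf1 the naive libraries sit lowest.

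Gavaged EAE brains held less RNA of all 10 genes than untreated EAE brains, by means. The log2 change of gavaged minus untreated ran from -0.56 (Hspa1b) to -0.051 (Hsf1), with a median of -0.20, where the median over all genes tested was 0.0064. By edgeR's quasi-likelihood test with Benjamini-Hochberg adjustment over all genes (adjusted p below 0.05), 5 of the 10 were called lower, Dnajb1, Hspa1b, Hspa8, Hsph1 and Ier5. Of all genes, 0.960% were called and 0.624% were called lower, and since this comparison chose the members nothing is read from their count. With only the 21 set 1 libraries, or without the 8 libraries with Sbp, 2 of the 10 were called (Dnajb1 and Ier5). Without those with Sbp, the changes of Hspa1a (0.062) and Hsf1 (0.031) lay above 0. In whole brain, fewer cells of a type and less RNA per cell cannot be told apart.

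Ier5, the regulator that binds Hsf1 (chr1:155096361-155099636), had the fewest gavaged libraries inside the untreated range. It measured 80.6 CPM at the lowest, 85.1 at the median and 96.0 at the highest in untreated EAE. In vehicle EAE it measured 54.1, 63.9 and 76.6 CPM, and in farnesol EAE 52.3, 59.7 and 81.8 CPM. The vehicle and untreated ranges did not overlap, and 18 of the 19 gavaged libraries lay below the lowest untreated library, the exception being farnesol replicate 7. Of all genes, 0.0108% had vehicle libraries all below the untreated ones. The log2 change of gavaged minus untreated was -0.45 ± 0.069 (SE), a ratio of 0.733, and it was -0.44 within set 1 and -0.45 without the libraries with Sbp. In naive brain Ier5 ranged from 60.9 to 97.0 CPM with a median of 82.0 CPM. The lowest naive library lay above 4 of 9 vehicle and 6 of 10 farnesol libraries, and the highest lay above all untreated libraries.

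Dnajb1, the Hsp40 that starts the Hsp70 cycle (chr8:83608193-83612653), followed the same order. Untreated EAE brains measured 52.9, 60.0 and 70.8 CPM (lowest, median, highest), vehicle brains 44.8, 52.3 and 56.2 CPM, and farnesol brains 42.2, 48.6 and 54.7 CPM. The ranges overlapped, and 15 of 19 gavaged libraries were below the lowest untreated library. The log2 change was -0.30 ± 0.045 (ratio 0.811), -0.28 within set 1 and -0.29 without the libraries with Sbp.

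Among the Hsp70 genes, Hspa1b had the largest change of the 10 and Hspa1a, its near copy, one of the smaller. Hspa1b (chr17:34956436-34959238) measured 9.26, 11.2 and 17.5 CPM (lowest, median, highest) in untreated EAE, 6.72, 7.66 and 9.44 CPM in vehicle EAE, and 4.14, 7.27 and 10.8 CPM in farnesol EAE. The ranges overlapped in a few libraries, and all 19 gavaged libraries were below the untreated median. The log2 change was -0.56 ± 0.10 (ratio 0.676), and -0.41 both within set 1 and without the libraries with Sbp. Inside the farnesol group, Hspa1b averaged 9.59 CPM in the 3 libraries of set 1 and 6.88 CPM in the 7 of set 2.

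Hspa1a (chr17:34969190-34972156) measured 5.71, 7.38 and 9.85 CPM in untreated EAE, 4.88, 6.92 and 7.51 CPM in vehicle EAE, and 5.65, 6.40 and 8.64 CPM in farnesol EAE. These ranges overlapped widely and the log2 change was -0.16 ± 0.091. In the untreated group Hspa1a averaged 8.45 CPM in the 5 libraries with Sbp and 6.24 CPM in the 4 without, and the change without such libraries was 0.062, with the opposite sign. The part of these libraries in the Hspa1a values was not tested. The transcripts are nearly identical over much of their length. Of the 100-base windows of Hspa1a, 52.9% do not occur in Hspa1b, and 50.1% of those of Hspa1b do not occur in Hspa1a. How reads that match both were counted is not given in the sources used here, Hspa1a also overlaps the antisense gene Gm20481, and the split between the copies is therefore uncertain. Their sum measured 15.3, 18.1 and 27.0 CPM in untreated EAE and 10.3, 14.5 and 18.1 CPM in gavaged EAE, a log2 change of -0.39 ± 0.079. The split between the copies does not move this sum if each shared read was counted once. Shared reads that were dropped, or counted for both copies, would move it.

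Hspa8, the constitutive Hsp70 (chr9:40800984-40810087), measured 1693, 1801 and 2039.5 CPM in untreated EAE. In vehicle EAE it measured 1544, 1673 and 1868 CPM, and in farnesol EAE 1435, 1578 and 1788 CPM. The groups overlapped, and 14 of 19 gavaged libraries were below the lowest untreated library. The log2 change was -0.18 ± 0.037 (ratio 0.885), -0.14 within set 1 and -0.21 without the libraries with Sbp. The gene contains 3 small nucleolar RNA genes in its introns (Snord14c, Snord14d and Snord14e) and has processed pseudogenes, and how reads of such copies were assigned is not given in the sources used here.

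The Hsp110 genes encode large relatives of Hsp70 that exchange its nucleotide. Hsph1 (chr5:149614287-149636376) measured 266, 319 and 383 CPM in untreated EAE, 253, 275 and 310.2 CPM in vehicle EAE, and 236, 255 and 309 CPM in farnesol EAE. Its ranges overlapped, with 10 of 19 gavaged libraries below the lowest untreated one, and the log2 change was -0.23 ± 0.047. Like Hspa1a, Hsph1 was higher in the untreated libraries with Sbp (mean 332 CPM) than in those without (mean 288 CPM), and the change without such libraries was -0.11. Hspa4 (chr11:53259814-53300457) measured 235, 263 and 275 CPM in untreated EAE and 218, 241 and 271 CPM in gavaged EAE. Its change was -0.083 ± 0.032, and 18 of 19 gavaged libraries were below the untreated median.

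Hsp90aa1 (chr12:110690605-110702728), a chaperone of kinases and steroid receptors, measured 983, 1148 and 1213 CPM in untreated EAE and 907, 1037 and 1132 CPM in gavaged EAE, a log2 change of -0.097 ± 0.035. Bag3 (chr7:128523616-128546981), the Hsp70 partner that directs damaged proteins to autophagy, measured 15.7, 20.7 and 22.4 CPM in untreated EAE. In vehicle EAE it measured 15.6, 16.4 and 22.8 CPM and in farnesol EAE 9.18, 16.0 and 19.1 CPM. Its change was -0.26 ± 0.099 and it overlaps the annotated locus 2610306O10Rik on the same strand. Hsf1 (chr15:76477422-76501913), the factor that drives the response, measured 37.7, 45.0 and 49.4 CPM in untreated EAE and 38.6, 41.5 and 47.9 CPM in gavaged EAE. The gavaged range of Hsf1 lay wholly inside the untreated one, and its log2 change of -0.051 ± 0.048 was the smallest of the 10. Without the libraries with Sbp the change of Hsf1 was 0.031, with the opposite sign.

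Vehicle and farnesol brains share their untreated controls, so the changes of the 2 arms are only set side by side. Both arms belong to the comparison that chose the genes, and nothing is read from their counts. Vehicle minus untreated had a median log2 change of -0.17 over the 10 genes, all below 0, with 1 called (Ier5, -0.43 ± 0.081). Of all genes, 0.0217% were called there. Leaving out single libraries gave 0 to 3 members called. Farnesol minus untreated had a median of -0.25, all below 0, with 5 called (Dnajb1 -0.34, Hspa1b -0.57, Hspa8 -0.22, Hsph1 -0.27 and Ier5 -0.46). Of all genes, 1.87% were called in that comparison, 0.911% lower. Within set 1, where farnesol is left with 3 libraries, 0 of the 10 were called, and the changes were -0.26 for Hspa1b, -0.14 for Hsph1, -0.16 for Hspa8, -0.30 for Dnajb1 and -0.46 for Ier5. With library set as a term 0 were called as well.

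Farnesol and vehicle brains, both gavaged, were compared to ask whether the compound itself moved these genes, and this comparison was not used to choose them. No member passed (0 of 10, edgeR quasi-likelihood with Benjamini-Hochberg adjustment), 1 was below 0.05 without adjustment, and DESeq2 and limma-voom also called 0. Of all genes 0.0922% were called. Changes of farnesol minus vehicle ran from -0.19 (Bag3) to 0.013 (Hspa1a), with a median of -0.059 against -0.0028 for all genes. The member with the smallest p was Hspa8, at -0.092 ± 0.043 (mean 1575 ± 99.2 against 1679 ± 98.6 CPM, adjusted p = 0.821). The 95% intervals of the difference were -0.19 to 0.13 for Ier5, -0.18 to 0.022 for Dnajb1, -0.26 to 0.22 for Hspa1b and -0.42 to 0.031 for Bag3. Most farnesol libraries are of set 2 and all vehicle libraries of set 1. Within set 1, 0 members were called, and the change of Hspa1b was 0.29 in place of -0.018.

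Naive brains place these levels against the healthy state. Each of these comparisons shares an arm with the one that chose the genes, and their differences from one another are that comparison again. The choice favours falls in gavaged and rises in untreated brains, and the p-values against naive are not free of that. In untreated EAE, Hspa1b and Hsf1 rose and Hsp90aa1 fell, and the other 7 genes did not pass. Of all genes 24.9% were called there, 13.6% higher and 11.3% lower, so the count of 3 in 10 is near the share over all genes. In vehicle EAE, Hsf1 rose, Hspa8, Hsph1, Hsp90aa1, Ier5 and Hspa4 fell, and 4 did not pass (31.5% of all genes called, 15.2% lower). In farnesol EAE, Hsf1 rose, and Dnajb1, Hspa8, Hsph1, Hsp90aa1, Bag3, Ier5 and Hspa4 fell, while Hspa1a and Hspa1b did not pass (34.2% of all genes called, 16.3% lower). Neutrophil markers differed with disease, with a summed level of 5 markers of 1.15 to 3.26 CPM in naive and 9.61 to 60.8 CPM in EAE libraries. Summed monocyte markers were also apart (3.51 to 5.23 against 12.7 to 134 CPM). Those of T cells (1.31 to 2.33 against 1.27 to 12.5 CPM) and of microglia and macrophages (140 to 168 against 118 to 463 CPM) overlapped. The part of infiltrating cells in the members' changes was not tested.

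Hsf1 was higher than in naive brain in each EAE group. It measured 30.1, 34.5 and 38.0 CPM (lowest, median, highest) in naive brain. All 9 vehicle libraries (from 38.6 CPM) and all 10 farnesol libraries (from 39.2 CPM) lay above the highest naive library, as did 7 of 9 untreated ones. Of all genes, 3.79% had vehicle libraries and 3.23% had farnesol libraries all above the naive ones. Hsf1 rose by 0.35 ± 0.058 in untreated (adjusted p = 3.34e-05), by 0.33 ± 0.058 in vehicle (adjusted p = 4.55e-05) and by 0.27 ± 0.057 in farnesol EAE (adjusted p = 0.000417). Inside set 2, where 7 farnesol libraries stand beside the naive ones, it rose by 0.26 (adjusted p = 0.00164). With library set as a term, the rises in untreated (0.31, adjusted p = 0.130) and vehicle brains (0.29, adjusted p = 0.0963) no longer passed.

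Hspa1b was higher in untreated EAE than in naive brain in all 9 libraries, from 9.26 CPM upwards against a naive range of 6.43 to 8.51 CPM, and 2.62% of all genes had ranges apart in that direction. The rise was 0.64 ± 0.13 (adjusted p = 0.000342), and 0.48 without the libraries with Sbp (adjusted p = 0.0257). This comparison runs wholly across the library sets, and with set as a term the change was 0.16 (adjusted p = 0.764). Vehicle (0.083 ± 0.13, adjusted p = 0.667) and farnesol brains (0.065 ± 0.13, adjusted p = 0.728) did not pass against naive. Hspa1a did not pass in untreated EAE (-0.018 ± 0.11), and the sum of the copies rose by 0.34 ± 0.097 (adjusted p = 0.00808). That sum does not depend on the copy to which shared reads were assigned if each was counted once.

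Abundant chaperones were lower than in naive brain in the gavaged EAE groups, and Hsp90aa1 also in untreated EAE. Hsp90aa1 measured 1159, 1214 and 1255 CPM in naive brain, and all 9 vehicle and all 10 farnesol libraries lay below its lowest naive library. Of all genes, 3.45% and 1.58% had such ranges apart. It fell by 0.13 ± 0.042 in untreated (adjusted p = 0.0211), by 0.20 ± 0.042 in vehicle (adjusted p = 0.000430) and by 0.25 ± 0.041 in farnesol EAE (adjusted p = 1.47e-05). The untreated call was lost without untreated replicate 9 (-0.11, adjusted p = 0.0605). Hspa8 (naive 1641, 1841 and 1985 CPM) did not pass in untreated EAE (0.0035 ± 0.045), and fell by 0.13 ± 0.045 in vehicle (adjusted p = 0.0278) and by 0.22 ± 0.044 in farnesol brains (adjusted p = 0.000219). The vehicle call of Hspa8 was lost on leaving out any of vehicle replicates 5 and 6 or naive replicates 3, 5, 6 and 7. Hsph1 (naive 283, 316 and 335 CPM) fell by 0.20 ± 0.056 in vehicle (adjusted p = 0.00601) and by 0.28 ± 0.055 in farnesol brains (adjusted p = 0.000152). Hspa4 (naive 255, 276 and 284 CPM) fell by 0.15 ± 0.038 in vehicle (adjusted p = 0.00198) and by 0.20 ± 0.037 in farnesol brains (adjusted p = 0.000106).

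Among the regulators and cochaperones at lower levels, Ier5 fell against naive by 0.28 ± 0.084 in vehicle (adjusted p = 0.0104) and by 0.31 ± 0.082 in farnesol EAE (adjusted p = 0.00381), and did not pass in untreated EAE (0.16 ± 0.084, adjusted p = 0.178). Dnajb1 (naive 47.1, 56.6 and 63.9 CPM) fell by 0.21 ± 0.054 in farnesol EAE (adjusted p = 0.00249) and did not pass in untreated (0.13 ± 0.055) or vehicle brains (-0.13 ± 0.055). Bag3 (naive 13.5, 18.3 and 27.6 CPM) fell by 0.37 ± 0.12 in farnesol EAE (adjusted p = 0.0145), a call lost without naive replicate 5 (-0.28, adjusted p = 0.0568). Inside set 2 the farnesol group kept 7 calls against naive, Hsf1 higher and Dnajb1, Hspa8, Hsph1, Hsp90aa1, Ier5 and Hspa4 lower, and Bag3 (-0.31, adjusted p = 0.0766) did not pass. With library set as a term, untreated against naive had 0 members called and vehicle against naive 1, Hsph1 (-0.39, adjusted p = 0.0132).

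**Figure D2:**
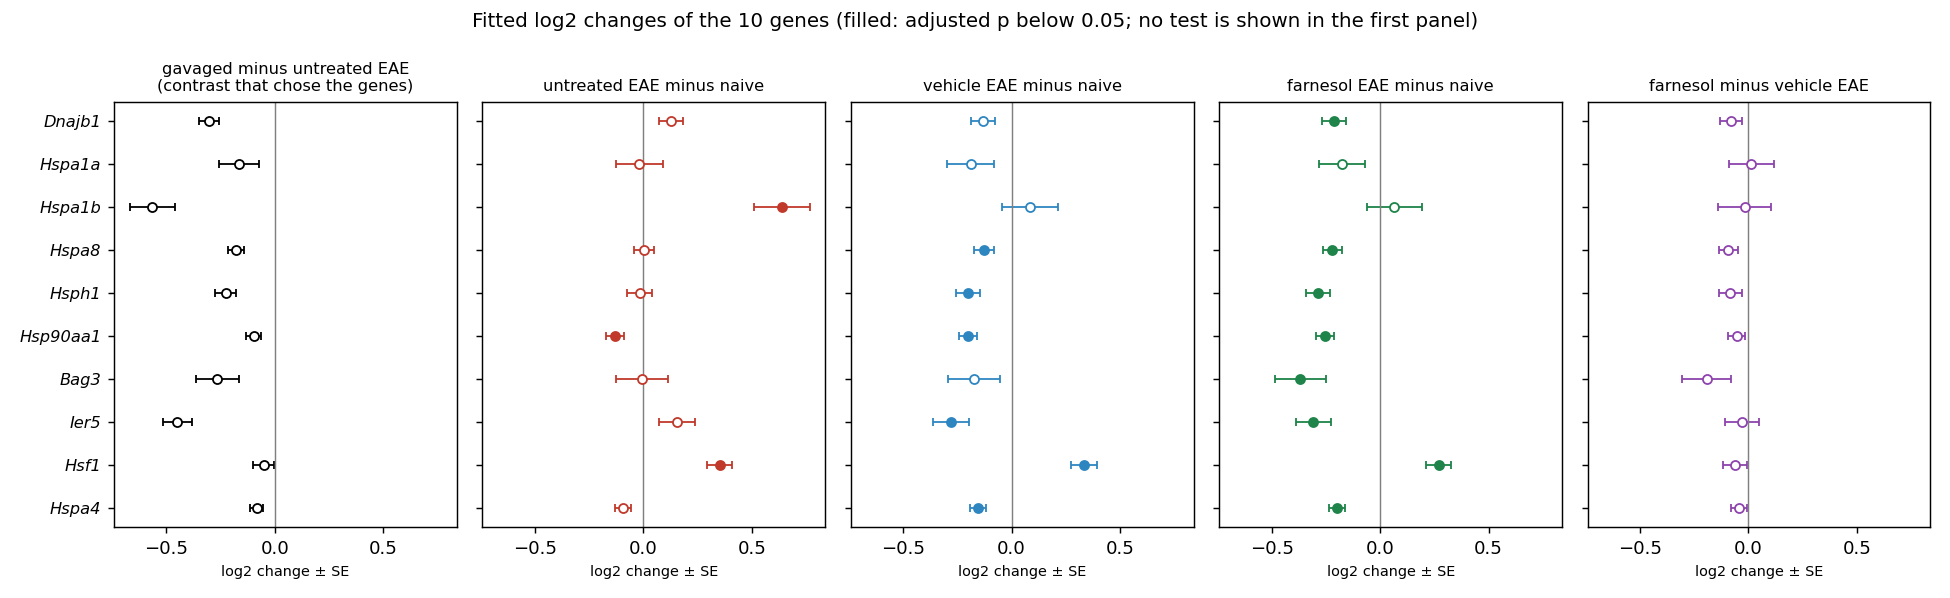
Fitted log2 change of each of the 10 genes with its standard error in 5 comparisons. Filled points have an adjusted p below 0.05, and the panel of the comparison that chose the genes shows no test. All points of gavaged minus untreated lie below 0, untreated minus naive has 2 filled points above 0 (Hspa1b and Hsf1) and 1 below (Hsp90aa1), and farnesol minus vehicle has none filled.

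Other genes of the pathway were described by lists that were also written with results of these data known. In gavaged minus untreated EAE (0.960% of all genes called), 1 of 17 further Hsf1 targets and inducible cochaperones was called, Dnaja4, an Hsp40 (-0.17). The list had 15 values below 0 and a median of -0.089, against 0.0064 for all genes. Hsp90ab1, the constitutive cytosolic Hsp90, changed by -0.11 and Dnaja1, another Hsp40, by -0.11, and neither was called. Of 17 constitutive partners of Hsp70 and Hsp90, of 8 subunits of the chaperonin TRiC, which folds actin and tubulin, and of 8 mitochondrial chaperones, 0 were called, with medians of -0.042, -0.058 and -0.027. The other heat shock factors Hsf2 and Hsf4 and the binding protein Hsbp1 lay between -0.020 and 0.010.

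Chaperones of the endoplasmic reticulum, which the unfolded protein response controls rather than Hsf1, were also lower in gavaged brains. Of 13 such genes 8 were called lower and 0 higher in gavaged brains, with a median of -0.23. Hspa5, the Hsp70 of this compartment known as BiP, measured 339, 380.1 and 428 CPM (lowest, median, highest) in untreated EAE. In vehicle EAE it measured 248, 274 and 359 CPM, and in farnesol EAE 220.4, 265 and 330.3 CPM. The gavaged and untreated ranges of Hspa5 overlapped, and the log2 change was -0.43 ± 0.065. Manf (-0.32), Hyou1 (-0.23) and Creld2 (-0.40), all induced by stress of this compartment, changed alike. Against naive brain, the list had 8 genes higher and 1 lower in untreated EAE, 0 higher and 2 lower in vehicle EAE, and 0 higher and 3 lower in farnesol EAE. Of all genes, 24.9%, 31.5% and 34.2% were called in these comparisons, and the counts in vehicle and farnesol EAE are below those shares. Hspa5 rose by 0.48 ± 0.079 in untreated EAE (adjusted p = 3.55e-05) and did not pass in vehicle (0.12 ± 0.079) or farnesol brains (-0.025 ± 0.077).

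Against naive brain, the further lists are given by their counts, where 24.9%, 31.5% and 34.2% of all genes were called in untreated, vehicle and farnesol EAE (11.3%, 15.2% and 16.3% lower). Untreated and vehicle EAE differ from naive brain in library set, and the fit with set as a term was read for the members only. TRiC subunits had 3 of 8 called lower in untreated, 6 in vehicle and 8 in farnesol EAE, with 0 higher in any, and medians of -0.082, -0.13 and -0.18. Tcp1, a TRiC subunit, fell by 0.15 ± 0.035, 0.22 ± 0.035 and 0.20 ± 0.035 in these groups (adjusted p = 0.00143, 1.62e-05 and 4.17e-05). Of the 17 further Hsf1 targets, 3 rose and 2 fell in untreated, 2 rose and 4 fell in vehicle, and 2 rose and 7 fell in farnesol EAE. Hsp90ab1 fell in each group, by 0.095 ± 0.036 (adjusted p = 0.0487), 0.18 ± 0.036 (adjusted p = 0.000230) and 0.24 ± 0.035 (adjusted p = 4.27e-06). Chordc1, an Hsp90 partner, rose in each, by 0.29 ± 0.053, 0.16 ± 0.053 and 0.14 ± 0.052 (adjusted p = 9.59e-05, 0.0159 and 0.0343). Of the 17 constitutive partners, 2 rose and 2 fell in untreated, 1 rose and 4 fell in vehicle, and 1 rose and 7 fell in farnesol EAE. Fkbp5, an Hsp90 partner that is also a glucocorticoid target, rose in each (0.75 ± 0.20, 0.77 ± 0.20 and 0.72 ± 0.20). Among untreated libraries it measured 55.0 to 76.4 CPM in those with Sbp and 26.8 to 35.1 CPM in those without. The naive range of Fkbp5 was 25.6 to 33.2 CPM, and the part of the libraries with Sbp in its rise was not tested. Mitochondrial chaperones had 1 higher and 2 lower, 0 and 3, and 0 and 3 in these comparisons. Of the heat shock factors and their binding protein, 0 of 3 were called in any comparison, and of all the lists 0 genes were called between farnesol and vehicle.

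**Figure D3:**
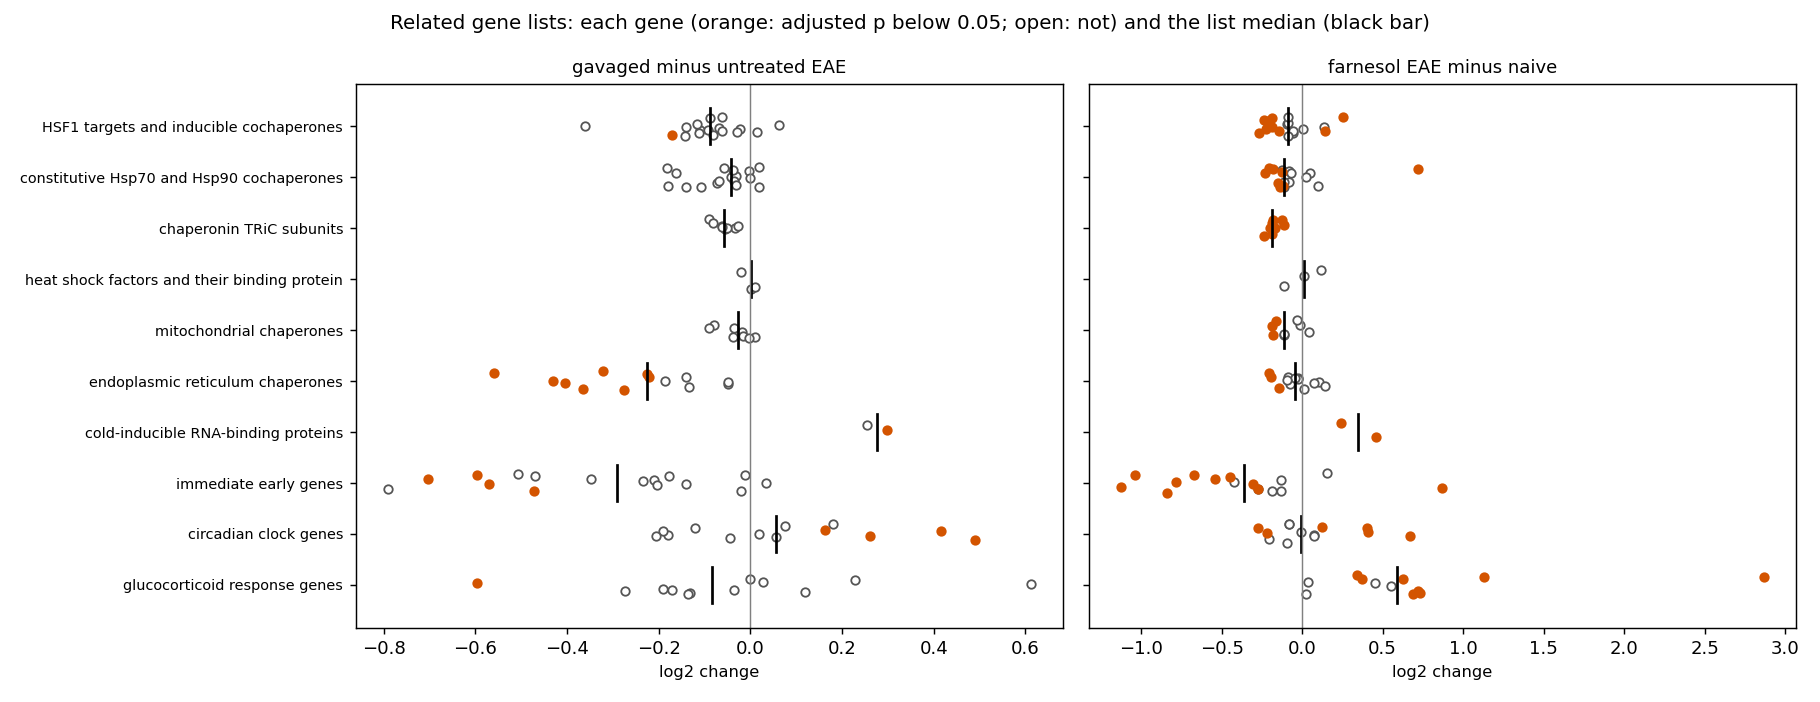
Log2 change of every gene of the related lists, one point per gene, in gavaged minus untreated EAE and in farnesol EAE minus naive (the axes differ in scale). Orange points have an adjusted p below 0.05 and black bars are list medians. In the gavaged comparison the endoplasmic reticulum list has 8 orange points below 0, and in farnesol minus naive all 8 TRiC subunits are orange and below 0.

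The cold-inducible RNA-binding proteins Cirbp and Rbm3, whose RNAs rise when cells cool while heat shock RNAs rise when they warm, were measured in the same libraries. No body temperature is given in the sources used here. Cirbp measured 41.6, 52.5 and 68.8 CPM (lowest, median, highest) in untreated EAE, 44.4, 63.2 and 70.6 CPM in vehicle EAE, and 57.5, 66.3 and 80.3 CPM in farnesol EAE. The groups overlapped, and gavaged minus untreated was 0.30 ± 0.073. Rbm3 measured 40.8, 46.7 and 71.1 CPM in untreated EAE, 46.5, 57.1 and 73.3 CPM in vehicle EAE, and 53.3, 61.5 and 87.1 CPM in farnesol EAE, a change of 0.25 ± 0.095 for gavaged minus untreated. Against naive, Rbm3 rose by 0.46 ± 0.11 in farnesol (adjusted p = 0.00180) and 0.31 ± 0.11 in vehicle brains (adjusted p = 0.0374), and Cirbp rose by 0.24 ± 0.084 in farnesol brains (adjusted p = 0.0250). Cirbp did not pass in vehicle brains, and neither gene passed in untreated EAE. Vehicle and untreated libraries differ from naive ones in library set, for which these 2 genes were not checked.

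Inside the groups, libraries with more of the abundant chaperones held less Cirbp and Rbm3. The group differences by which the members were chosen are taken out here. Cirbp and Rbm3 were themselves picked with earlier results of these data known. Each library's deviation from its group mean in log2(CPM + 0.5) was correlated over the 36 libraries, with permutation within groups (100000 draws) and adjustment over 20 relations. Farnesol libraries of both sets were permuted together, so a shift between the sets can enter these p-values. No p was computed for r within a set. By the adjusted p of Pearson's r, 7 passed, all negative. Hspa8 against Cirbp had Pearson's r = -0.71 (permutation p = 2.00e-05, adjusted p = 0.000400) and Spearman's rho = -0.68 (permutation p = 4.00e-05, adjusted p = 0.000400). Without the 2 libraries farthest from the median of Hspa8 it had r = -0.63, and r was -0.77 in set 1 and -0.54 in set 2. Hspa4 against Rbm3 had r = -0.65 (permutation p = 6.00e-05, adjusted p = 0.000400; rho = -0.65, permutation p = 4.00e-05, adjusted p = 0.000400), -0.71 without the 2 farthest libraries, -0.82 in set 1 and -0.33 in set 2. Hsph1 against Rbm3 had r = -0.64 (permutation p = 5.00e-05, adjusted p = 0.000400; rho = -0.63, permutation p = 0.000110, adjusted p = 0.000733), -0.64 without the 2 farthest libraries, -0.77 in set 1 and -0.58 in set 2. Hsph1 (r = -0.54), Hsp90aa1 (-0.49) and Hspa4 (-0.55) against Cirbp also passed (permutation p = 0.00215, 0.00614 and 0.00125, adjusted p = 0.00717, 0.0175 and 0.00625), with -0.12 for Hsp90aa1 in set 2. Hsp90aa1 against Rbm3 (r = -0.54, permutation p = 0.00183, adjusted p = 0.00717) was -0.80 in set 1 and did not hold in set 2, at 0.21. Dnajb1 against Cirbp (r = -0.39, permutation p = 0.0292, adjusted p = 0.0650; rho = -0.41, permutation p = 0.0202, adjusted p = 0.0487) and Hspa8 against Rbm3 (r = -0.39, permutation p = 0.0258, adjusted p = 0.0645; rho = -0.41, permutation p = 0.0219, adjusted p = 0.0487) passed by rank correlation and not by Pearson's r. Dnajb1 against Rbm3, and Ier5, Bag3, Hsf1, Hspa1a and Hspa1b against either gene, passed by neither measure.

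**Figure D4:**
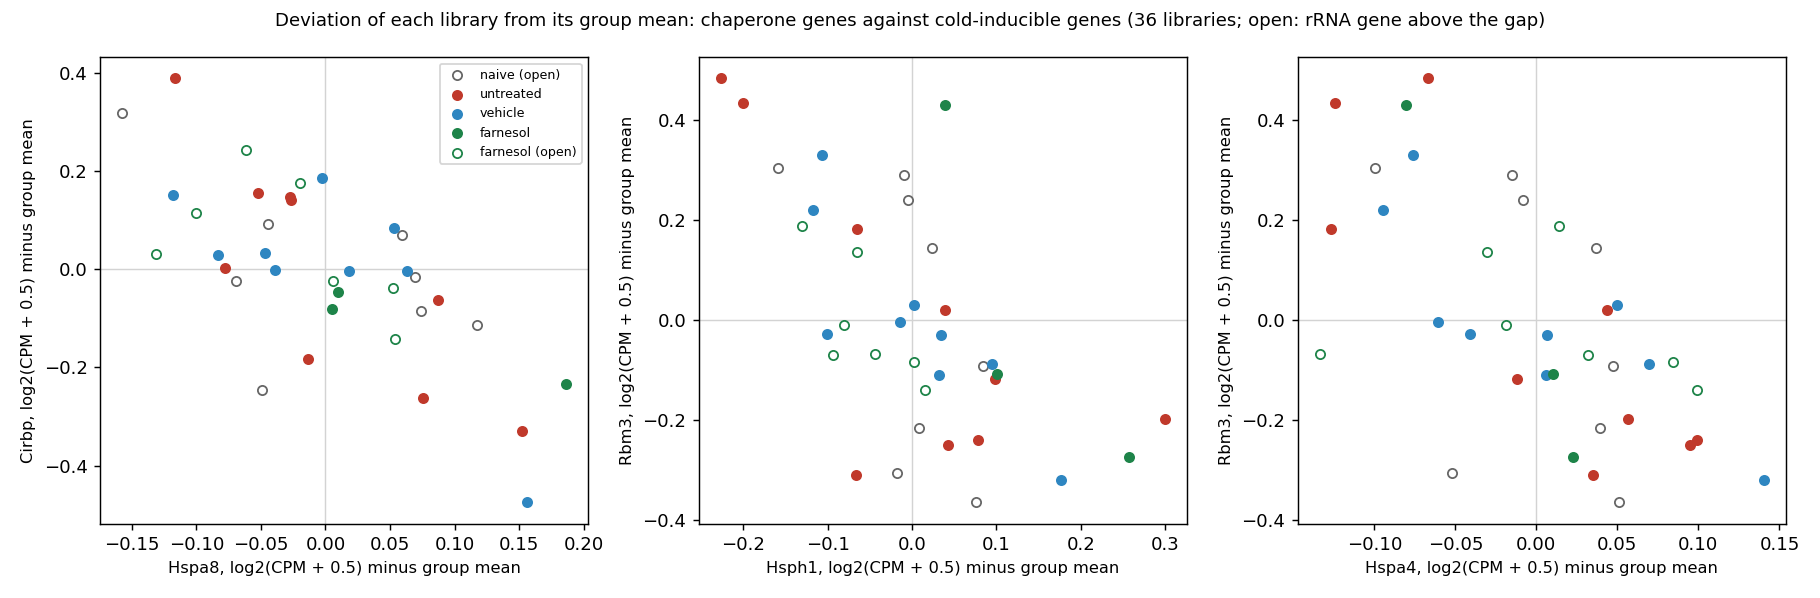
Deviation of each of the 36 libraries from its group mean, in log2(CPM + 0.5), for Hspa8 against Cirbp, Hsph1 against Rbm3 and Hspa4 against Rbm3. Colours are groups, filled points set 1 and open points set 2. The points run from upper left to lower right in the 3 panels, with Pearson's r of -0.71, -0.64 and -0.65.

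The members also varied with one another inside the groups, though not as 1 block. Farnesol libraries of both sets were again permuted together. Of the 45 pairs of members, 11 passed by Pearson's r (permutation within groups, adjusted p below 0.05), 9 positive and 2 negative, and the median r was 0.12. The strongest was Hsp90aa1 with Hspa4 (r = 0.76, rho = 0.72, permutation p = 1.00e-05, the smallest these draws can give, adjusted p = 0.000450), which was 0.71 without the 2 farthest libraries, 0.82 in set 1 and 0.60 in set 2. Hspa1b with Hsph1 had r = 0.63 (permutation p = 0.000110, adjusted p = 0.00247; rho = 0.50), 0.53 without the 2 farthest libraries, 0.69 in set 1 and 0.32 in set 2. Ier5 went with Dnajb1 (r = 0.45, permutation p = 0.00676, adjusted p = 0.0372; rho = 0.42, adjusted p = 0.0475) and against Bag3 (r = -0.50, permutation p = 0.00744, adjusted p = 0.0372; rho = -0.48, adjusted p = 0.0376). Hsf1 RNA with Hsp90aa1 had r = -0.46 (permutation p = 0.0120, adjusted p = 0.0490), and its rank correlation did not pass (rho = -0.43, permutation p = 0.0190, adjusted p = 0.0753).

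Among 13976 other genes of at least 1 CPM, the one whose deviations were most like the mean of the members was Hsp90ab1 (r = 0.83, rho = 0.77 over 36 libraries, 0.82 without the 2 farthest libraries). It is the constitutive sister gene of Hsp90aa1. The next 7, Abhd6, Rpn1, Lrg1, Nup133, Alox12b, Ppme1 and Smap2, had r from 0.65 to 0.68. Cirbp (r = -0.58) and Rbm3 (r = -0.54) stood at positions 13971 and 13961 of the 13976 ranked genes. These correlations are descriptions over libraries that share depth and handling within a group, and no test was made of them.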

How the data were processed

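Per the labels' protocols, RNA was extracted with RNeasy columns and libraries were made with a NEBNext Ultra kit. The authors deposited raw counts of reads per Ensembl gene. STAR 2.5 and mm10 are named per the submitters' processing notes. The sources used here do not give the counter, annotation or strand setting. GENCODE M21 (GRCm38) named 54495 of 54532 identifiers, which held 99.99% of counts.

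The members and gene lists were chosen with earlier results of these data known. The text names the 10 members, up to 4 genes of smallest p per list in gavaged against untreated EAE, Cirbp, Rbm3, Hspa5, Hsp90ab1, Dnaja1, Fkbp5 and the 8 genes most like the members. Genes were filtered with filterByExpr (minimum count 10, total 15), scaled by TMM and fitted as 4 group means over all 36 libraries (edgeR 4.0.16, R 4.3.3, glmQLFit and glmQLFTest). P-values were adjusted by Benjamini-Hochberg over the 18438 genes. The SE was derived from the log2 change and its F statistic. Correlations and motif searches used Python 3.11.15. The fit was tested on simulated data. Alternatives were RLE scaling, other filters, DESeq2 1.42.0, limma-voom (limma 3.58.1) with sample weights, only the groups compared, a replicate block, library set as a term, 1 set only, leaving out libraries, and, added after seeing the data, summed Hspa1a and Hspa1b counts.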

Additional observations from a re-analysis of the deposited data

Results flagged for a closer look

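Of 40 sets of libraries screened (10 genes in 4 groups), 3 held a library whose distance from its nearest neighbour was large for the range of its group, and chance flags about 1 set in 20. Hspa1b measured 17.5 CPM in untreated replicate 2, where the next highest untreated library had 12.5 CPM. Hsph1 measured 283 CPM in naive replicate 1, where the next lowest naive library had 312 CPM. Bag3 measured 22.8 CPM in vehicle replicate 9, where the next highest vehicle library had 19.2 CPM. Leaving out any single library kept the gavaged minus untreated change of Hspa1b between -0.60 and -0.47, that of Hsph1 between -0.25 and -0.19 and that of Bag3 between -0.30 and -0.23.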

How the results depend on the processing

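Counts of members called, out of 10, moved by over 1.5 times under these settings. Gavaged against untreated EAE (5 called) had 2 with library set as a term, 2 with 1 set only and 2 without the libraries with Sbp above 1 CPM. Vehicle against untreated (1 called) had 3 with DESeq2 and with library set as a term, 2 with RLE scaling, a filter of 1 CPM in 8 libraries, limma-voom and the replicate block, and 0 without the libraries with Sbp or those low in cerebellar genes. Farnesol against untreated (5 called) had 0 with library set as a term or 1 set only and 3 without the libraries with Sbp. With library set as a term, untreated against naive (3 called) had 0 and vehicle against naive (6 called) had 1. Leaving out single libraries gave 0 to 3 for vehicle against untreated, with 0 without untreated replicate 1, 2, 3, 4, 5 or 8 or vehicle replicate 1, 4, 5, 6 or 9. It gave 5 to 5 for gavaged against untreated, 5 to 6 for farnesol against untreated, 3 to 4, 5 to 7 and 7 to 8 for untreated, vehicle and farnesol against naive, and 0 to 0 for farnesol against vehicle. With Hspa1a and Hspa1b summed, untreated minus naive was 0.34 where Hspa1a alone gave -0.018. Values of single members changed sign under a setting in 58 cases, none of them called in either fit. The causes of these shifts were not tested.

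Replicate numbers did not pair libraries. Same-numbered libraries of different groups had correlations of their deviations from -0.43 to 0.49 (median 0.0099, 51 pairs, 12 above 0.1), and 5 of the 36 correlated best with their own number. The replicate block moved 1 count by over 1.5 times, that of vehicle against untreated. Naive brains could not be compared with untreated or vehicle brains within 1 set, so the set and the group cannot be told apart there. The fit with set as a term was read for the members only, so the genes of the lists, Cirbp and Rbm3 among them, were not checked for it. At 79 to 350 counts per library, Hspa1a and Hspa1b carry the largest counting error of the members.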

Other observations

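Lists of fast-responding, clock and hormone-responsive genes, chosen with results of these data known, were read in the same brains. In gavaged minus untreated EAE, 4 of 16 immediate early genes were called lower and 0 higher, with a median log2 change of -0.29. They were the activity-regulated genes Arc (-0.70), Egr3 (-0.60), Fosb (-0.57) and Egr1 (-0.47). Of 13 circadian clock genes 4 were called higher and 0 lower, Ciart (0.49), Dbp (0.42), Per3 (0.26) and Nr1d2 (0.16). The median of the clock list was 0.055, and 5 of its 13 values lay below 0. Of 12 glucocorticoid response genes 1 was called, the cell cycle inhibitor Cdkn1a (-0.60), and Fkbp5 (-0.0016 ± 0.16) was not. The median of that list was -0.084, and 8 of its 12 values lay below 0. Background shares are those given for that comparison. The hour of collection is not given in the sources used here, and the part of these genes in the members' values was not tested.

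Against naive brain, 11 of the 12 glucocorticoid response genes rose in untreated, 10 in vehicle and 8 in farnesol EAE, and 0 fell in any. Of the 16 immediate early genes, 2 rose and 1 fell in untreated, 1 rose and 3 fell in vehicle, and 1 rose and 9 fell in farnesol EAE. Of all genes, 24.9%, 31.5% and 34.2% were called in these comparisons, so the counts of immediate early genes in untreated and vehicle EAE are below the share over all genes. Summed endothelial markers spanned 198 to 270.1 CPM in untreated and 187 to 289 CPM in gavaged libraries, and 1 of the 5, the transporter Slco1a4, was called higher in gavaged brains. Of 5 markers each of neurons, astrocytes, oligodendrocytes, microglia, neutrophils, monocytes, T cells, cerebellum, olfactory bulb, choroid plexus and erythroid cells, 0 were called between gavaged and untreated EAE.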
